A study of Mus musculus with 96 samples.

Results

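The genes described here were the 92 mouse potassium channel genes whose symbols are written Kcn, one or more small letters and a number, out of 54833 features in the count table. They were chosen by symbol alone, through the GENCODE M21 names of their Ensembl identifiers, and all 92 are protein coding. The set held 30 pore-forming voltage-gated subunits (Kcna, Kcnb, Kcnc, Kcnd, Kcnh and Kcnq), 10 electrically silent subunits (Kcnf, Kcng, Kcns and Kcnv), 8 calcium- or sodium-activated subunits (Kcnm alpha, Kcnn, Kcnt and Kcnu), 15 inward rectifiers (Kcnj), 14 tandem-pore background channels (Kcnk) and 15 auxiliary proteins (Kcnab, Kcne, Kcnip and Kcnm beta). The libraries came from wild-type male C57BL/6 mice, 6 to 8 weeks old. For sleep deprivation (SD), a rotating drum kept mice walking from 6:00 AM to 4:00 PM (10 h), the part of the day in which they mostly sleep, with feed and drink at hand. Control mice (CON) stayed undisturbed. Forebrain, cerebellum, liver and kidney were then taken at circadian times (CT) 4, 8, 12, 16, 20 and 24, with 2 libraries for each of the 48 combinations of tissue, condition and time, 96 in all. Total RNA was depleted of ribosomal RNA and sequenced with strand information. Depth ranged from 24760295 to 58486579 assigned counts per library. All groups were whole pieces of tissue, so that fewer cells of a type and less RNA per cell cannot be told apart.

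Potassium channels let potassium flow down its gradient and so pull the membrane voltage back toward rest. In neurons the voltage-gated families shape the spike and its repetition, the calcium-activated families shape the pause after it, and the tandem-pore channels and inward rectifiers hold the resting voltage. In kidney tubules potassium channels recycle or secrete potassium across the epithelium, and in hepatocytes they help to set cell volume and the driving force for transport. Silent subunits carry no current alone and change the behaviour of Kcnb partners, whereas auxiliary proteins alter the gating, trafficking or amount of the pore proteins. Several channels of these families are known from work on sleep, because the change of neuronal firing between wake and sleep depends in part on potassium currents.

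Some points on the libraries bear on what follows. Of the 24 kidney libraries, 20 carried a treatment or time in their characteristics that differed from their title, 10 of them in treatment, while the other 72 libraries had no such conflict. Titles were used. Under the titles the clock gene Arntl peaked at CT5.07 in kidney and CT5.49 in liver, Nr1d1 at CT14.2 and CT14.6, and Per2 at CT20.9 and CT21.3. Peak times below are by the CT of the titles, and how they relate to clock phases in other studies was not tested. One library, CON cerebellum CT8 replicate 1, stood apart. Its counts on features annotated as antisense were 4.3% of those on protein-coding features. Member results that rest on it are given with and without it, while shares over all features include it. The summed hepatocyte and kidney tubule markers followed the labels, though 1 of the 4 hepatocyte markers was called lower in liver than in kidney. The summed level of 4 hepatocyte markers was 66419 to 89265 CPM (counts scaled to 1e+06 assigned counts) in CON liver and at most 110 CPM in any CON library of the other tissues, and that of 5 kidney tubule markers was 8802 to 10410 CPM in CON kidney and at most 1.42 CPM in the others. The loci of the 92 genes were long, with a median span of 32.2 kb against 17.6 kb over all protein-coding features, and 23 of them (25%) spanned over 100 kb against 11.4%. Kcna3 and Kcnk7 had no count in any library, Kcnk16 had 1 count in all, and the axonal subunit gene Kcna1 reached only 0.074 FPKM (counts per kb of exon, scaled like CPM) in forebrain and 0.125 FPKM in cerebellum. Since Kcna1 is a well known brain gene, a level near 0 in these counts was not read as absence. Annotated antisense exons overlap 26 of the members.

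Control brain held far more potassium channel RNA than control liver or kidney. The members together made up 12282 to 15604 CPM in cerebellum (median 14270, n = 12), 8331 to 11177 CPM in forebrain (median 9619, n = 12), 2214 to 2794 CPM in kidney (median 2504, n = 12) and 170 to 329 CPM in liver (median 212, n = 12). The 4 ranges did not overlap. At a mean of at least 1 FPKM, 66 members were seen in forebrain, 52 in cerebellum, 24 in kidney and 8 in liver. The highest of the 4 tissues was forebrain for 46 members, cerebellum for 30, kidney for 11 and liver for 3. The silent and the calcium- or sodium-activated classes were mostly highest in forebrain (8 of 10 and 6 of 8 members), while the tandem-pore class was more often highest in cerebellum (7 of 14) than in forebrain (4 of 14). These counts rank mean FPKM and include near ties and members near 0. In edgeR's test described below, 3 tandem-pore members were called higher in forebrain and 3 lower, with a median log2 difference of -0.01.

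**Figure D1:**
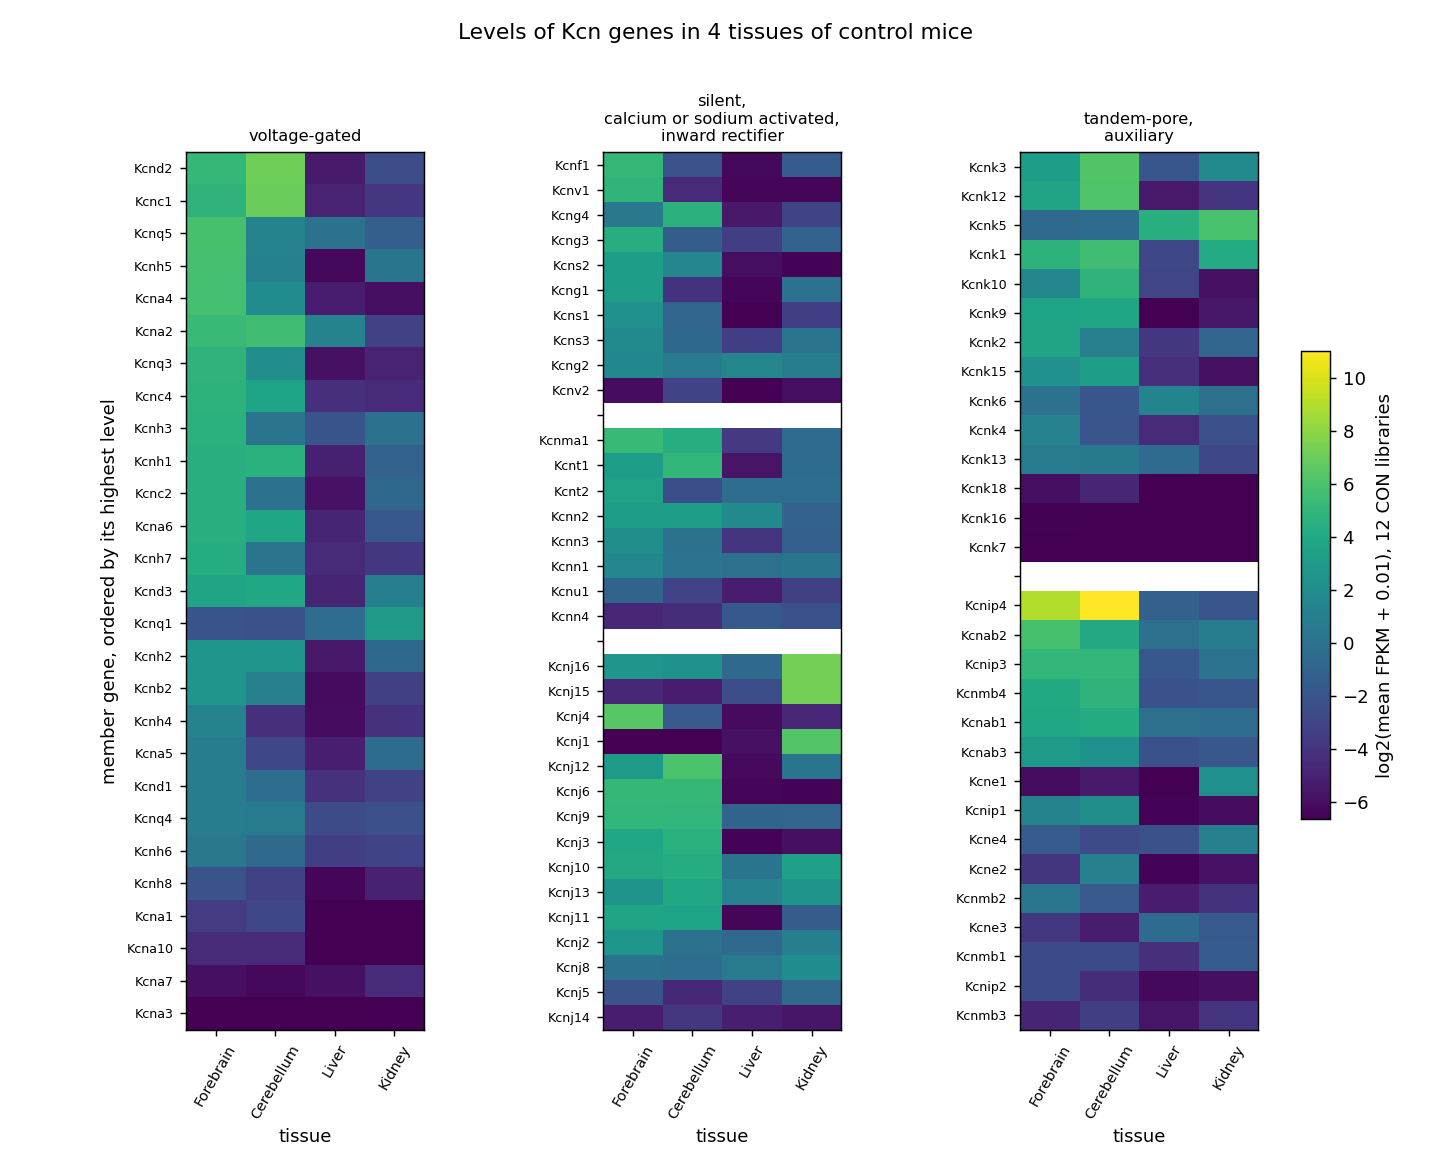
Mean levels of the genes in the 12 CON libraries of each tissue, as log2(FPKM + 0.01) by colour, one line per gene and one column per tissue, in blocks by class. Kcnip4 is the brightest gene in cerebellum (1982 FPKM) and forebrain (510.3 FPKM), and Kcnj1, Kcnj15 and Kcnj16 are brightest in kidney.

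A single auxiliary gene dominated the brain. Kcnip4, a calcium-binding partner of the Kcnd channels, averaged 1982 ± 273 FPKM in cerebellum and 510 ± 180 FPKM in forebrain (SD, n = 12 each) and gave 51.5% of all member counts in cerebellum and 19.0% in forebrain. Its forebrain libraries spread from 257 to 745 FPKM and its cerebellum libraries from 1532 to 2371 FPKM, without overlap. Kcnd2, the pore that Kcnip proteins attach to and the source of a fast transient current in granule cells, came next in cerebellum with 141 ± 12.97 FPKM. Kcnc1, which lets neurons fire fast, followed with 124 ± 9.53 FPKM, and the tandem-pore genes Kcnk3, an acid-sensitive background channel, and Kcnk12 had 74.5 ± 4.39 and 69.6 ± 4.87 FPKM. In forebrain the next members were the strong inward rectifier Kcnj4 (86.8 ± 17.1 FPKM), the Kcna-associated beta subunit Kcnab2 (58.2 ± 6.41), the M-current subunit Kcnq5 (57.7 ± 19.0) and Kcnh5 (55.7 ± 24.1), a voltage-gated channel of the ether-a-go-go family. The last 3 of these lay within each other's spread, and the 12 forebrain values of Kcnh5 ranged from 8.08 to 80.9 FPKM. Liver was the reverse picture, with Kcnk5, an acid-sensitive background channel, at 21.0 ± 8.98 FPKM and every other member below 4 FPKM. The next were Kcnn2, a small-conductance calcium-activated channel, at 3.54 ± 0.849 FPKM, the silent subunit Kcng2 at 2.55 ± 0.511, the endolysosomal tandem-pore gene Kcnk6 at 2.46 ± 0.366 and Kcna2 at 2.37 ± 0.446.

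Kidney expressed the inward rectifiers of its tubules. Kcnj16, which pairs with Kcnj10 in the basolateral membrane of the distal nephron, averaged 160 ± 15.4 FPKM in CON kidney (SD, n = 12), and Kcnj15 the same level, 160 ± 18.8 FPKM. Kcnj1, the channel that secretes potassium in the thick ascending limb and collecting duct, averaged 78.1 ± 4.78 FPKM, Kcnk5 61.4 ± 12.7 FPKM and Kcnk1, a weakly conducting tandem-pore channel, 17.999 ± 1.37 FPKM. Kcnj15 alone gave 40.8% of member counts in kidney. Kcnj10 itself was at 10.8 ± 0.640 FPKM in kidney, 16.02 ± 3.10 in forebrain and 19.8 ± 2.76 in cerebellum, where it belongs to glia, and at 1.10 ± 0.451 FPKM in liver.

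The tissue differences were tested with edgeR's quasi-likelihood test in the 48 CON libraries, and a member was called at an adjusted p below 0.05 and an absolute log2 fold change above 1. Of the 92 members, 84 passed the filter on low counts. Brain was higher than liver and kidney for 66 members and lower for 11, where the shares over all 26536 features tested were 35.7% higher and 27.2% lower. The median log2 difference was 4.22 over the members and 0.21 over all features. The excess ran through the classes, from 26 of 27 tested voltage-gated members higher and 1 lower to 7 of 14 inward rectifiers higher and 5 lower. Forebrain exceeded cerebellum for 41 members and fell below it for 13, against 19.8% and 14.7% of all features, and liver exceeded kidney for 12 and fell below it for 50, against 16.1% and 23.3%. All 10 inward rectifiers called between liver and kidney were lower in liver.

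The members with the largest excess in brain were channels of neurons. Kcnj6, a G-protein-gated inward rectifier, had 192880 counts over the 24 CON brain libraries and 10 over the 24 peripheral ones, a CPM ratio of 23811. The acid-sensitive background channel Kcnk9 (ratio 2179), Kcnj3 (4318), the partner of Kcnj6, Kcnip4 (3707) and Kcnc1 (1705) followed. For each of these 5 genes the lowest brain library lay above the highest peripheral library. In the other direction Kcnj1 had 123636 counts in liver and kidney together and 0 in brain, so that it was at least 33384-fold higher in the periphery by a floor of 3 counts over the group. Kcnj15 was 3312-fold and Kcnk5 62.1-fold higher in the periphery, the epithelial pore Kcnq1 18.2-fold, the auxiliary Kcne4 4.73-fold and Kcnk6 2.51-fold. The peripheral side pools both organs, and Kcne4 was high in kidney (2.01 FPKM) but lower in liver (0.197 FPKM) than in forebrain (0.320 FPKM). The lowest peripheral Kcnj15 library, a liver, had 0.553 CPM, close to the highest brain library at 0.493 CPM. Kcnj16 also had a negative pooled log2 difference (-1.30), with 160 FPKM in kidney, 0.656 in liver, 5.78 in forebrain and 5.30 in cerebellum, so brain lay below kidney and above liver. Most other widely studied members named here were higher in brain, among them Kcna2 (log2 difference 6.08), Kcnd2 (10.14), Kcnma1 (6.63), Kcnn2 (2.40), Kcnj10 (1.995) and, on very few counts, Kcna1 (6.81).

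Of the 6 members with the largest excess in forebrain over cerebellum, 4 were silent subunits. Kcnv1 was 841-fold higher in forebrain than in cerebellum (77.3 CPM in its lowest forebrain and 0.628 CPM in its highest cerebellum library), Kcng1 176-fold, Kcnf1 158-fold and Kcng3 58.4-fold, beside Kcnj4 (292-fold) and the sodium-activated Kcnt2 (63.1-fold). Their libraries did not overlap between the regions. The silent subunit Kcng4 ran the other way and was 19.9-fold higher in cerebellum, as were the tandem-pore genes Kcnk10 (9.67-fold) and Kcnk3 (8.08-fold) and the inward rectifier Kcnj12 (8.39-fold). Kcne2, an auxiliary protein of the choroid plexus, was 35.3-fold higher in cerebellum on average, but its cerebellum libraries included values of 0 and overlapped with forebrain. Kcna2, Kcnn2, Kcnk9, Kcnj10 and Kcnk5 did not pass between forebrain and cerebellum, with log2 differences from -0.16 to 0.16 and adjusted p from 0.154 to 0.993 in edgeR.

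Between the peripheral organs Kcna2 was 23.8-fold and Kcnn2 7.65-fold higher in liver, Kcnk6 2.78-fold and Kcng2 1.54-fold by CPM, the last with overlapping libraries and a log2 difference of 1.12 (SE 0.10). Kcnj1 was 10357-fold higher in kidney (123625 counts against 11), Kcnj15 935-fold, Kcng1 500-fold, Kcnh5 399-fold and Kcnj12 344-fold. Kcne1, the small partner of Kcnq1, had 7109 counts in kidney and 0 in liver, which makes it at least 2184-fold higher in kidney. Of 30 partner genes of these channels (Hcn channels, sodium pump subunits, cation-chloride cotransporters, Dpp and Lrrc accessory proteins, the sulfonylurea receptors and the anchoring proteins of axons), 29 were tested. Of these, 19 were higher and 6 lower in brain, 3 higher and 6 lower in forebrain than in cerebellum, and 1 higher and 17 lower in liver than in kidney. Over all features the shares were 35.7% and 27.2%, 19.8% and 14.7%, and 16.1% and 23.3% in the same order.

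Sleep deprivation was compared with control over the 6 times, with time of day as a term and an adjusted p below 0.05 as the call. In forebrain 0 of 80 tested members passed edgeR's test, where 0.0303% of all features did, and the log2 fold changes lay between -0.62 and 1.12 with 72 of them within 0.25 of 0. In cerebellum 0 of 78 passed, against 0% of all features. At an unadjusted p below 0.05 the counts were 2 of 80 and 5 of 78 members, and DESeq2 also called 0 in both. The nearest members were the silent Kcns2 (0.20, SE 0.09), Kcnj16 (-0.17, SE 0.08) and Kcnk6 (0.19, SE 0.10) in forebrain and the transient-current channel Kcnd3 (0.18, SE 0.07), the Kcnd partner Kcnip1 (-0.20, SE 0.07) and Kcnk12 (-0.12, SE 0.05) in cerebellum, with edgeR adjusted p from 0.772 to 0.907. The median standard error of the log2 fold change was 0.11 in both regions and 0.19 in liver.

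In liver 9 of 47 tested members passed, 3 higher and 6 lower after sleep deprivation, a share (19.1%) close to the 18.2% of all features. The median log2 fold change of the 47 members was -0.15, with 33 below 0, and that of all features 0.01. The largest and clearest change was a fall of Kcnab2, the beta subunit that binds Kcna pores in the cytoplasm and resembles an aldo-keto reductase. In CON liver it had 4.25 and 3.77 CPM at CT4, 5.69 and 8.35 at CT8, 3.96 and 6.54 at CT12, 4.07 and 5.22 at CT16, 4.98 and 5.49 at CT20 and 4.18 and 4.96 at CT24. In SD liver the values were 1.87 and 1.93, 2.67 and 2.25, 3.57 and 3.05, 3.06 and 3.02, 3.49 and 2.27, and 2.21 and 2.25 CPM at the same times. In CPM, which are scaled by library totals, all 12 SD libraries lay below all 12 CON libraries. The scaling in edgeR's test brings the groups closer (mean log2 factor 0.068 in CON and -0.068 in SD liver). Overlap on that scale and the share of all features without overlap were not examined. By CPM Kcnab2 was the only one of the 9 called members without overlap. It fell by 0.82 log2 units (SE 0.12, 7.18e-05 as edgeR adjusted p) and stayed called in all 24 fits that left out 1 library.

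The Kcna pore that is most abundant in liver moved the same way. Kcna2 had 17.7 to 35.8 CPM in CON liver (median 28.2) and 11.3 to 21.9 CPM in SD liver (median 18.4), and each of the 12 SD libraries lay below the CON median. It fell by 0.52 (SE 0.09, edgeR adjusted p = 4.08e-04). The M-current subunit Kcnq5, the other voltage-gated member called, had a median of 5.75 CPM in CON and 3.46 in SD, but both groups reached above 18 CPM at CT16. Its fold change of -0.54 (SE 0.18, edgeR adjusted p = 0.0360) lost its call in 12 of the 24 fits without 1 library.

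The calcium-activated Kcnn genes split. Kcnn4, the intermediate-conductance channel of blood cells and epithelia, had 0.864 to 2.16 CPM in CON (median 1.36) and 0.442 to 1.61 CPM in SD (median 0.668), and 11 of 12 SD libraries lay below the CON median. It fell by 0.72 (SE 0.16, edgeR adjusted p = 0.00334). Kcnn1, a small-conductance channel, had 2.87 to 6.02 CPM in CON (median 4.28) and 4.04 to 7.61 in SD (median 5.55), with 11 of 12 SD libraries above the CON median, and rose by 0.54 (SE 0.11, edgeR adjusted p = 9.87e-04). Kcnn2 rose by 0.25 (SE 0.08, edgeR adjusted p = 0.0372), with 19.1 to 36.6 CPM in CON and 23.96 to 43.8 CPM in SD, a change that was lost in 12 of 24 fits without 1 library.

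Of the inward rectifiers, Kcnj10 fell by 0.55 (SE 0.15, edgeR adjusted p = 0.0145) and its partner Kcnj16 rose by 0.38 (SE 0.10, edgeR adjusted p = 0.00956). Kcnj10 had 2.46 to 11.3 CPM in CON liver (median 5.69) and 2.15 to 5.08 CPM in SD liver (median 3.77), with all 12 SD libraries below the CON median. Kcnj16 had 1.91 to 3.33 CPM in CON (median 2.43) and 1.82 to 4.03 CPM in SD (median 3.08). The groups of both genes overlapped, and 10 of 12 SD libraries of Kcnj16 lay above its CON median. The tandem-pore gene Kcnk6 had 8.02 to 13.5 CPM in CON and 6.88 to 9.17 CPM in SD and fell by 0.24 (SE 0.07, edgeR adjusted p = 0.0237), a call lost without CON liver CT4 replicate 1 (adjusted p = 0.0525). Kcnk5, the most abundant member in liver, did not pass.

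**Figure D2:**
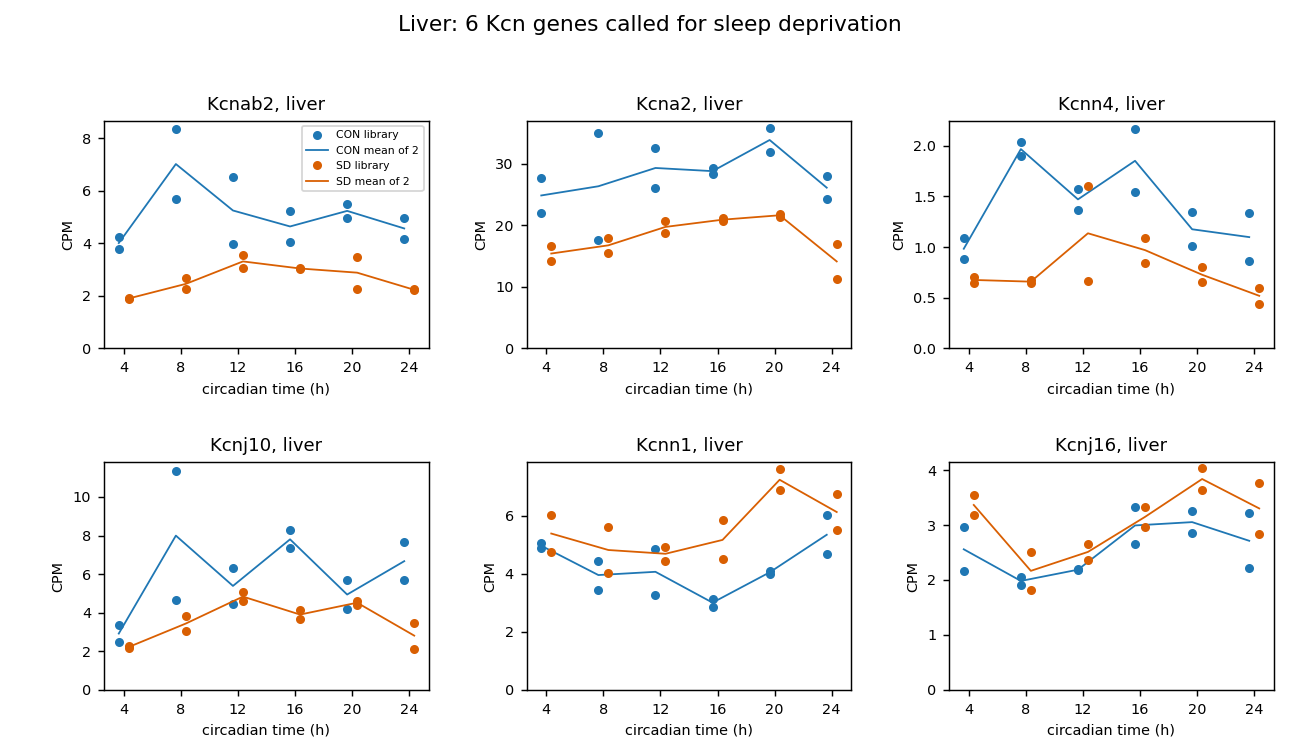
Levels in CPM of 6 of the 9 called members in each of the 24 liver libraries by circadian time in hours, CON in blue and SD in orange, with lines through the mean of the 2 libraries. Kcnab2 shows all 12 SD points (1.87 to 3.57 CPM) below all 12 CON points (3.77 to 8.35 CPM), whereas Kcnn1 and Kcnj16 lie higher in SD with overlap.

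Whether the rises passed depended on how libraries were scaled. The scaling factors of edgeR's trimmed mean method differed between the groups in liver, and with library totals alone the median over all liver features of the log2 fold change moved from 0.01 to -0.13. Under library totals 11 members were called, 1 higher and 10 lower. Kcnn1 still rose (0.40, edgeR adjusted p = 0.00752), but Kcnj16 (0.24, adjusted p = 0.0679) and Kcnn2 (0.12, adjusted p = 0.372) did not pass, and all 6 falls remained called with Kcnab2 at -0.96. Cell type markers moved in the same libraries. Of 4 hepatocyte markers 3 were tested and all 3 were called higher (median log2 fold change 0.25), and 1 of 2 endothelial markers was called lower, with summed levels of 88.96 to 134 CPM in CON and 66.9 to 101 CPM in SD liver. Of 3 leukocyte markers 2 were called lower. Ptprc, the pan-leukocyte phosphatase, fell by 0.76 in liver (edgeR adjusted p = 1.71e-05) and the macrophage receptor Csf1r by 0.44 (adjusted p = 0.0011), while Cd68 was at 0 in liver and kidney. The 3 genes together had 287 to 499 CPM in CON liver and 168 to 268 CPM in SD liver, and the part of any of these cells in the member changes was not tested.

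In kidney 2 of 66 members passed, against 2.3% of all features. Kcnk1 had 34.1 to 44.6 CPM in CON kidney (median 40.2) and 39.1 to 55.6 CPM in SD kidney (median 47.5), and 11 of 12 SD libraries lay above the CON median. It rose by 0.22 (SE 0.05, edgeR adjusted p = 0.0341). Kcnab2 had 7.53 to 12.8 CPM in CON and 6.07 to 10.3 CPM in SD and fell by 0.21 (SE 0.05, edgeR adjusted p = 0.0352). The conflicting treatment entries of 10 kidney libraries bear on these calls, which follow the titles. Both were small, and each was lost in 14 of the 24 fits without 1 library (adjusted p up to 0.0772 and 0.0716) and with the replicate number as a block (0.0597 and 0.0585). With library totals alone Kcnk1 remained (0.24) and Kcnab2 did not pass (adjusted p = 0.105). Ptprc also fell in kidney, by 0.56 (edgeR adjusted p = 7.85e-05). Of the 2 leukocyte markers tested there, the other, Csf1r, did not pass. Kcnj1, Kcnj15, Kcnj16 and Kcnk5, the abundant tubule channels, did not pass.

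**Figure D3:**
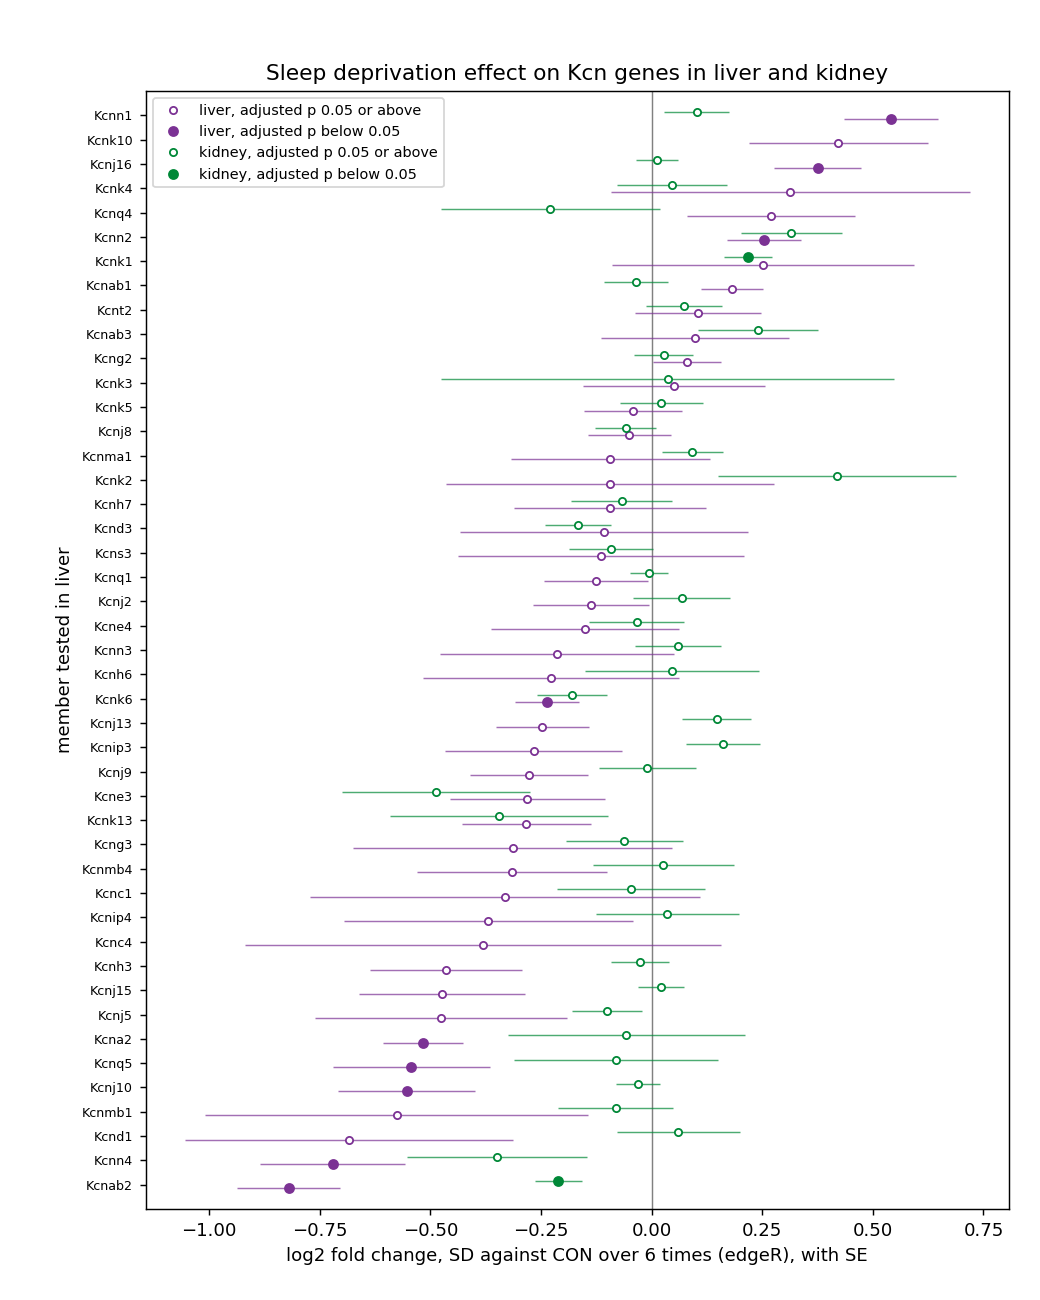
Fitted log2 fold change of SD against CON over the 6 times for members tested in liver, with its standard error, in liver and kidney, filled where the adjusted p was below 0.05. The liver values spread from -0.82 (Kcnab2) to 0.54 (Kcnn1), and most kidney values lie within 0.25 of 0.

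Whether the response differed between the 2 organs was tested directly. For 7 of 67 members the change in liver minus the change in kidney passed, against 6.49% of all features. Kcnab2 fell more in liver (difference -0.62, SE 0.12, edgeR adjusted p = 0.00185), as did Kcnj10 (-0.54, SE 0.16, adjusted p = 0.0344) and Kcnj13, an epithelial inward rectifier (-0.40, SE 0.12, adjusted p = 0.0428). Kcnj16 (0.36, SE 0.10, adjusted p = 0.0258) and Kcnn1 (0.43, SE 0.13, adjusted p = 0.0339) rose more in liver by trimmed mean scaling. With library totals, which shifted the median difference of all features to -0.17, no member was higher and 9 were lower. The other 2 were voltage-gated genes that did not pass the filter on low counts in liver and entered through kidney. Kcnc2 had 24 counts over the 12 CON liver libraries and 2 over the 12 SD libraries, a ratio of 0.0833 with an exact 95% interval of 0.00954 to 0.336 that covers counting error only, and Kcnh4 had 9 and 1 counts. The SD counts of each came from 1 library. The difference for Kcnj16 was lost without SD liver CT24 replicate 2 (adjusted p = 0.0558). Those for Kcnn1, Kcnj10 and Kcnj13 were lost in 14, 6 and 29 of the 48 fits without 1 library, and that for Kcnab2 in 0. Between forebrain and cerebellum the difference passed for 0 of 82 members, against 0% of all features, with 5 of 82 at an unadjusted p below 0.05 and 0 in DESeq2.

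Among the partner genes 2 of 19 tested in liver passed, against 18.2% of all features. One of them was Atp1b3, a beta subunit of the sodium pump, which fell by 0.25 (SE 0.05, edgeR adjusted p = 0.00202). In forebrain, cerebellum and kidney 0 of 27, 27 and 26 partners passed, against 0.0303%, 0% and 2.3% of all features.

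A joint test asked for a change at any of the 6 times. It called 0 of 80 members in forebrain and 0 of 78 in cerebellum, against 0% of all features in each, 3 of 47 in liver (3.56% of all features) and 2 of 66 in kidney (0.725%). The liver calls included Kcnab2 (edgeR adjusted p = 0.00756) and Kcnn1 (0.0340), and the kidney calls were Kcng4 (0.0309) and Kcnk1 (0.0403). Kcnab2 stayed called in all 24 liver fits without 1 library, whereas Kcnn1, Kcng4 and Kcnk1 were lost in 13, 8 and 20 of 24. With the replicate number as a block, Kcnn1 (edgeR adjusted p = 0.0686) and Kcng4 (0.0662) were also lost. At an unadjusted p below 0.05 there were 4 members in forebrain and 6 in cerebellum, where DESeq2 called 3 and 2. Over all features DESeq2 called 936 of 23078 and 244 of 22218.

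At single times, with 2 libraries against 2, the calls were isolated. In forebrain 1 of 480 member tests passed, where 0.381% of all tests did. Kcnf1 at CT20 had 167 and 202 CPM in the CON pair, against 120 and 123 CPM in the SD pair and fell by 0.60 (SE 0.14, edgeR adjusted p = 0.0401). Its other 20 forebrain libraries lay between 141 and 209 CPM, so the SD pair at CT20 was the lowest of the 24. The call was lost in 12 of 24 fits without 1 library and with a term for the balance of long against short genes. In liver 2 of 282 tests passed, against 0.109% of all tests, both at CT8. Kcnab2 at CT8 fell by 1.38 (SE 0.26, edgeR adjusted p = 0.0349). It was lost without SD liver CT8 replicate 1 (edgeR adjusted p = 0.518), SD replicate 2 (0.116) or CON replicate 2 (0.215) of that time, and with the replicate number as a block (0.0674).

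In kidney 1 of 396 tests passed, against 0.0619% of all tests. Kcng4 at CT24 had 0.394 and 0.768 CPM in the CON pair, against 0.0403 and 0.0417 CPM in the SD pair, which rests on 55 against 4 counts, a ratio of 0.0654 with an exact 95% interval of 0.0172 to 0.177. The edgeR adjusted p was 0.0160, DESeq2 gave no adjusted p for it, and the call was lost in 3 fits without 1 library (up to 0.343). In cerebellum 1 of 468 tests passed, against 1.71% of all tests, and it rested on the library that stands apart. Over all features each of the 2281 calls at single times in cerebellum was likewise at CT8, the time of that library. Kcnk15, a tandem-pore gene, had 97.8 CPM in CON CT8 replicate 1 and 14.8 CPM in replicate 2, and 9.48 to 15.4 CPM in the other libraries. Its fall of -2.29 at CT8 became -0.23 without that library (edgeR adjusted p = 0.998) and 0.00112 with the term for long against short genes.

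The choroid plexus genes Kcne2 and Kcnj13 varied widely among the cerebellum libraries, within as well as between conditions. Kcne2, an auxiliary protein, and Kcnj13, an apical inward rectifier, are both known from the plexus epithelium, which lies against the cerebellum and can come along in dissection. Kcne2 ranged from 0 to 25.6 CPM and Kcnj13 from 5.68 to 68.0 CPM over the 24 libraries. At CT4 Kcne2 had 0 and 0 CPM in the CON pair, against 25.6 and 12.1 CPM in the SD pair, and Kcnj13 7.28 and 6.50 CPM in the CON pair, against 68.0 and 36.4 CPM in the SD pair. Transthyretin (Ttr), the defining secreted protein of the plexus, had 0.585 and 1.31 CPM in the CON pair, against 2770 and 1338 CPM in the SD pair in the same libraries. At CT20 the order was the opposite, with Kcne2 at 9.05 and 3.26 CPM in the CON pair, against 0.788 and 0.0350 CPM in the SD pair, and Ttr at 1156 and 443 against 82.7 and 1.92 CPM. The summed level of the 4 plexus markers (Ttr, Kl, Clic6 and Folr1) ran from 4.16 to 1875 CPM in CON and from 5.82 to 3075 CPM in SD cerebellum, with Folr1 at or near 0 throughout, and the part of plexus tissue in the member values was not tested. Every library with Ttr above 80 CPM had Kcne2 above 0.7 CPM, and every one below 5 CPM had Kcne2 below 0.2 CPM. The exception for Kcnj13 was CON CT8 replicate 1, with 32.6 CPM of Kcnj13 and 0.242 CPM of Ttr. Annotated exons of Gigyf2 overlap Kcnj13 on the opposite strand, and the part of antisense reads in its levels was not tested. The log2 difference of Kcnj13 at CT4 was 2.89 with all libraries, which did not pass, and 2.899 (SE 0.59) without CON CT8 replicate 1.

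**Figure D4:**
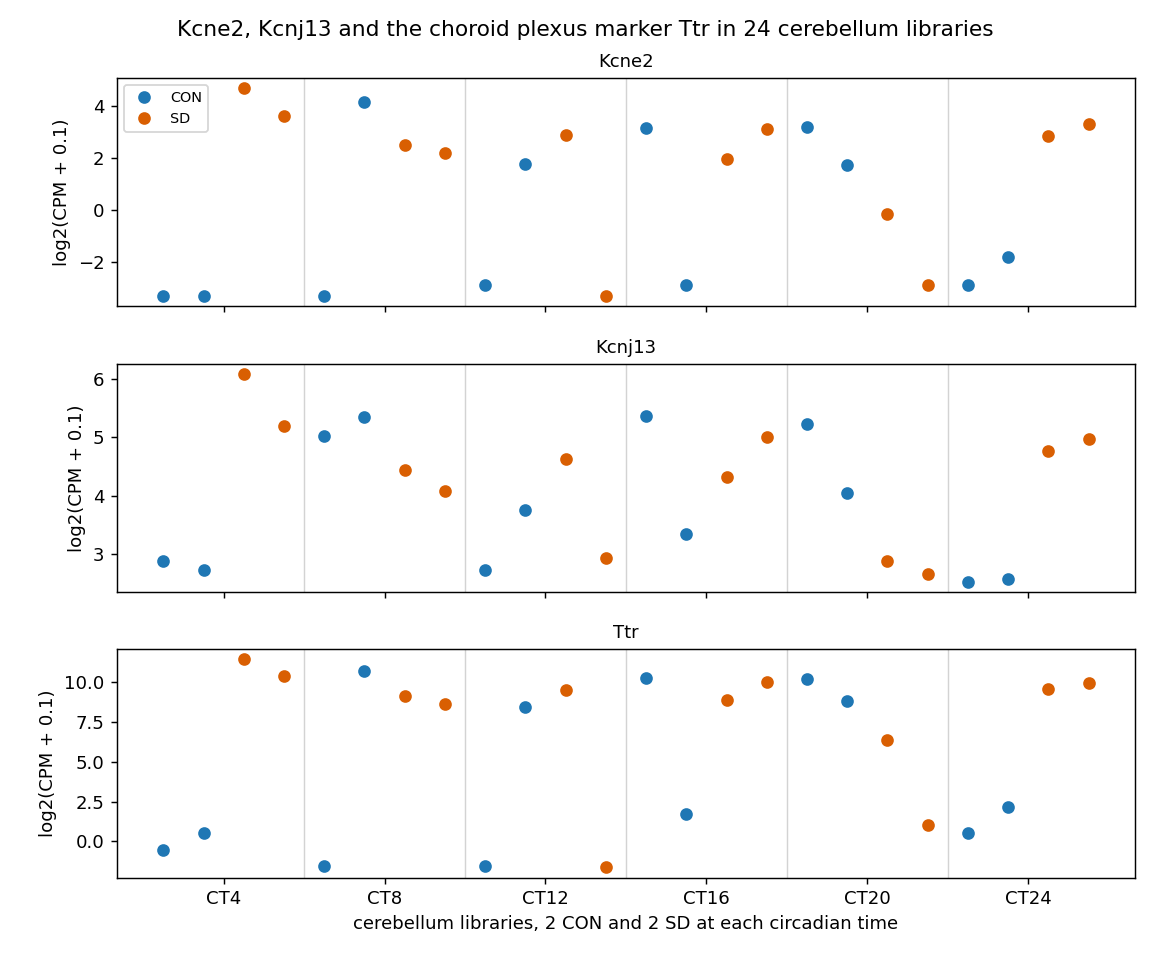
Levels of Kcne2, Kcnj13 and Ttr in each of the 24 cerebellum libraries as log2(CPM + 0.1), ordered by circadian time with 2 CON (blue) and 2 SD (orange) libraries at each. Libraries low in Ttr are low in Kcne2, which runs from 0 to 25.6 CPM, and Kcnj13 departs from this in CON CT8 replicate 1 (32.6 CPM).

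Time of day was tested with a 24 h cosine over the 24 libraries of a tissue, with condition as a term. In forebrain 0 of 80 members passed (3.78% of all features) and in cerebellum 0 of 78 (0.347%), whereas 12 of 47 passed in liver (34%) and 10 of 66 in kidney (15.1%). The liver share, 25.5%, lay below that of all features and the kidney share, 15.2%, next to it. In forebrain 12 members and in cerebellum 14 had an unadjusted p below 0.05, which is 15% and 17.9% of those tested against 25.3% and 12.2% of all features. DESeq2 called 4 and 3 members, against 2429 of 23078 and 271 of 22218 features. The nearest in forebrain were Kcnk9 (edgeR adjusted p = 0.0589), the Kcna beta subunit Kcnab1 (0.0609) and Kcnk5 (0.0658), and in cerebellum Kcnip1 (0.118), Kcnn2 (0.178) and Kcna2 (0.188).

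In kidney the rhythmic members were of several classes and had 2 groups of peak times. The delayed rectifier Kcnb2 had the strongest rhythm, with a peak at CT10.6 and a fitted peak-to-trough difference of 1.68 on the log2 scale (edgeR adjusted p = 6.31e-07). Its 4 libraries, CON and SD together, ranged from 0.898 to 1.37 CPM at CT4, 1.23 to 2.21 at CT8, 1.92 to 2.53 at CT12, 1.03 to 1.78 at CT16, 0.539 to 0.914 at CT20 and 0.476 to 0.818 at CT24. The 4 values of CT12 lay above all values of CT4, CT16, CT20 and CT24. Kcnab2 peaked at CT8.71 with a difference of 0.60 (edgeR adjusted p = 2.82e-05), from 9.52 to 12.8 CPM at CT8 to 6.07 to 8.08 CPM at CT20. Kcnj8, the pore of the vascular ATP-sensitive channel, peaked at CT12.0 (0.43), and the silent subunit Kcns3 at CT12.1 (0.52). Kcnc2, a fast voltage-gated gene, peaked at CT14.5 (0.87), the sodium-activated Kcnt1 at CT14.4 (0.91) and the ether-a-go-go channel Kcnh1 at CT14.0 (0.98). The abundant Kcnj15 had a shallow rhythm with a peak at CT16.9 (0.28), from 857 to 1046 CPM at CT8 to 1089 to 1252 CPM at CT16. Late peaks came from Kcne4 at CT22.4 (0.82), with 3.27 to 5.88 CPM at CT8 and 6.35 to 9.29 CPM at CT24, and from Kcna5, a delayed rectifier of smooth muscle, at CT22.7 (0.82). The edgeR adjusted p of these 8 ranged from 0.00374 to 0.0282. Kcnj15 was lost in 4 of 24 fits without 1 library (adjusted p up to 0.0751) and Kcns3 without SD kidney CT12 replicate 1 (adjusted p = 0.0645). By JTK_CYCLE, a rank test for rhythms, Kcne4, Kcnc2 and Kcnh1 (adjusted p = 0.0587 each) and Kcnt1 (0.0737) did not pass.

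In liver the peaks fell around the clock. Kcnk5, the main liver channel, peaked at CT19.8 with a peak-to-trough difference of 0.90 (edgeR adjusted p = 0.00552). Its CON libraries had 71.3 and 38.7 CPM at CT4, 48.3 and 51.0 at CT8, 47.8 and 56.9 at CT12, 147.9 and 102.6 at CT16, 95.01 and 67.3 at CT20 and 67.8 and 62.2 at CT24, and its SD libraries 61.0 and 56.3, 44.8 and 62.6, 31.8 and 30.0, 119.9 and 67.5, 68.3 and 89.5, and 74.5 and 54.0 CPM. The rise from CT12 to CT16 was present in both conditions without overlap. Kcnj16 peaked at CT22.0 (0.68) and Kcnn1 at CT0.781 (0.63), followed by Kcnab1 with a fitted peak at CT4.03 (0.43). The mean of Kcnab1 was lower at CT4 (7.63 CPM) than at CT24 (8.82 CPM) and CT8 (9.37 CPM), so its fitted peak does not mark its highest time. Kcnj8 peaked at CT10.2 (0.62), Kcnn4 at CT12.4 (0.75), the strong inward rectifier Kcnj2 at CT12.9 (0.69) and Kcnj13 at CT13.7 (0.55). The edgeR adjusted p of these 7 ranged from 0.00335 to 0.0450. Kcnj13 was lost in 19, Kcnj2 in 4 and Kcnn4 in 4 of the 24 fits without 1 library (adjusted p up to 0.123, 0.0728 and 0.12). Kcnj13 was also lost with the replicate number as a block (0.0526), and Kcnab1 by JTK_CYCLE (0.107) and in edgeR with library totals alone (0.127).

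A further 3 liver members, Kcnq5, the large-conductance calcium-activated Kcnma1 and Kcnip4, have loci of 564, 725 and 1135 kb and were high in 3 of the 4 libraries of CT16. Kcnq5 had 16.3 and 19.0 CPM in the CON pair, against 18.01 and 2.895 CPM in the SD pair at CT16, and 2.67 to 8.996 CPM at the other times. Kcnma1 had 1.91 and 2.69 CPM in the CON pair, against 4.31 and 0.999 CPM in the SD pair at CT16, and Kcnip4 2.47 and 5.65 CPM in the CON pair, against 6.96 and 0.410 CPM in the SD pair. In each gene the low value came from SD replicate 2. The fits gave peaks at CT16.4, CT18.4 and CT13.7 and edgeR adjusted p of 0.00164, 0.0400 and 0.0418. The balance of long genes (over 100 kb) against short genes (under 10 kb) in the liver libraries, relative to their mean, was also highest at CT16, 0.163 in CON and 0.160 in SD on the log2 scale. With that balance as a term, an alternative chosen after these values were seen, Kcnq5 (adjusted p = 0.334), Kcnma1 (0.251) and Kcnab1 (0.245), whose locus spans 269 kb, no longer passed, while Kcnip4 (0.0304) and Kcnk5 (0.0103) did. Without SD liver CT16 replicate 1, Kcnma1 (adjusted p = 0.109) and Kcnip4 (0.159) were lost. Both were lost by JTK_CYCLE (0.186 and 0.228), and Kcnip4 with the replicate number as a block (0.0518).

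**Figure D5:**
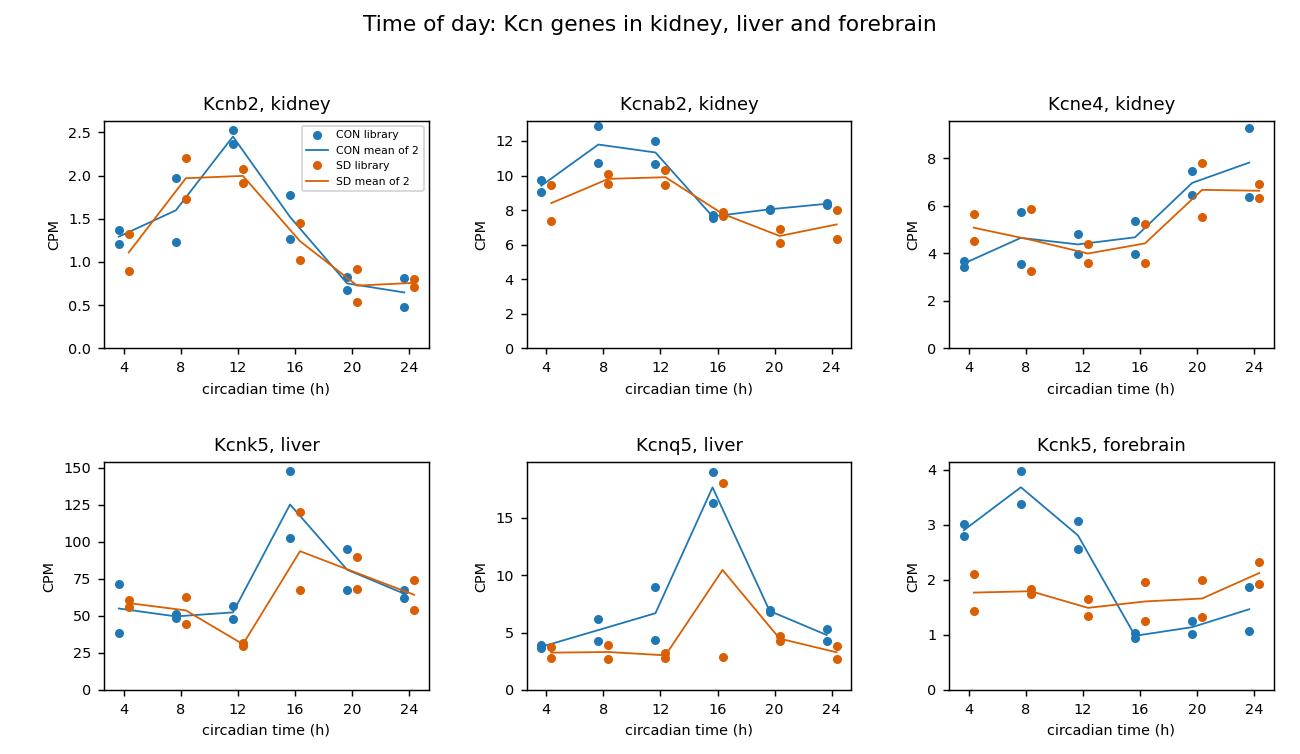
Levels in CPM by circadian time in hours for Kcnb2, Kcnab2 and Kcne4 in kidney, Kcnk5 and Kcnq5 in liver and Kcnk5 in forebrain, one point per library and lines through the mean of 2, CON in blue and SD in orange. Kcnb2 peaks near CT12 in both conditions, Kcnq5 at CT16 in 3 of 4 libraries, and forebrain Kcnk5 falls from CT12 (2.56 and 3.06 CPM) to CT16 (0.940 and 1.03 CPM) in CON.

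The promoter sequences of 67 of the 92 members, 92 windows in all, could be matched by symbol in RefSeq (GRCm38.p6), each from 250 bases before to 50 after a start site. They were searched for CACGTG, the canonical E-box that the CLOCK and BMAL proteins can bind, which reads the same on both strands. It stood in 7 of the 92 member windows (7.609%), and in 2349 of 32851 promoters overall (7.15%). Among the windows of members rhythmic in liver it stood in 5 of 19 (from Kcnk5, Kcnj2, Kcnn4 and, in 2 windows, Kcnab1), and among those of tested members that did not pass in 1 of 35. Over all features the shares were 10.47% and 8.114%. In kidney the order was the opposite, with 1 of 14 windows of rhythmic members (7.143%, from Kcne4) and 6 of 54 of the others (11.11%), against 10.13% and 8.565% over all features. A match is a run of letters and not a shown binding site, and windows of 1 gene are not independent. The windows of 4 rhythmic members are given 5′ to 3′ on the gene's strand with CACGTG in capitals, as examples of rhythmic members whose window holds the motif. Kcnab1, with 2 such windows, is not printed. They lie at chr14:20181733-20182032 (Kcnk5, minus strand, motif 26 bases after the start site), chr11:111065914-111066213 (Kcnj2, plus strand), chr7:24370013-24370312 (Kcnn4, plus strand) and chr1:78816661-78816960 (Kcne4, plus strand).
Kcnk5 promoter: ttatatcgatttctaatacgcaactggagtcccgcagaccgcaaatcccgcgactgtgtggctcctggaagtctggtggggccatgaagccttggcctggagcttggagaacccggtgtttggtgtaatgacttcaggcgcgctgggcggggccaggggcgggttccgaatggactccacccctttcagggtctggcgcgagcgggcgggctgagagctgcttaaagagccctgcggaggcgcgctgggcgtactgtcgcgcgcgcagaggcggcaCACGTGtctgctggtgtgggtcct
Kcnj2 promoter: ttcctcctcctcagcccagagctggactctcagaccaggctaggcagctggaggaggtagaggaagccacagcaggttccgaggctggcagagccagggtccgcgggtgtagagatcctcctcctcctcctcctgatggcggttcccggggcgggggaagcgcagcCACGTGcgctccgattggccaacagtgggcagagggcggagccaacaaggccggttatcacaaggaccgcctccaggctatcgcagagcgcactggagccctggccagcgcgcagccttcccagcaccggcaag
Kcnn4 promoter: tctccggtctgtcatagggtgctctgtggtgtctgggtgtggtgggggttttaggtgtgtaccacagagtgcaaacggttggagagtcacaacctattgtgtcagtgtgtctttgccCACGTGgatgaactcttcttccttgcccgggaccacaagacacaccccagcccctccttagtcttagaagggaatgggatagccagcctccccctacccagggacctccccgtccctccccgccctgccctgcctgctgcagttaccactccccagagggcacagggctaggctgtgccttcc
Kcne4 promoter: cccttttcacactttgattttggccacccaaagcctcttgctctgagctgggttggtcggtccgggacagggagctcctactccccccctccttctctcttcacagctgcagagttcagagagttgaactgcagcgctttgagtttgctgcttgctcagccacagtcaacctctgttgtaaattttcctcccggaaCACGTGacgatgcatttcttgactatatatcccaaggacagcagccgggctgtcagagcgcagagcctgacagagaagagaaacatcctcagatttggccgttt

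Whether sleep deprivation altered the daily cycle was asked with the interaction of condition and cosine. It passed for 0 members in each tissue (0% of all features in forebrain, 0% in cerebellum, 0% in liver and 0% in kidney), with 4 of 80, 19 of 78, 1 of 47 and 1 of 66 members at an unadjusted p below 0.05 in edgeR. These shares were 5%, 24.4%, 2.13% and 1.52% of members, against 6.02%, 10.1%, 3.66% and 4.06% of all features. Kcnk5 in forebrain had the smallest value (edgeR adjusted p = 0.313). In CON forebrain it had 2.80 and 3.01 CPM at CT4, 3.38 and 3.99 at CT8 and 3.06 and 2.56 at CT12, then 1.03 and 0.940 at CT16, 1.02 and 1.26 at CT20 and 1.07 and 1.86 at CT24. Its 12 SD libraries stayed between 1.25 and 2.33 CPM without such a step. DESeq2 called this difference (adjusted p = 7.65e-04) and edgeR did not. In the 12 CON libraries alone 3 members passed for rhythm in liver, 3 in kidney and 1 in forebrain, which was Kcnk5 (edgeR adjusted p = 0.0355, peak at CT7.41). In the SD libraries alone 1 passed in liver, 3 in kidney, 0 in forebrain and, against 0 in CON alone, 1 in cerebellum. These counts stand without shares over all features. They do not test a difference between the conditions, for which the interaction passed for 0 members in each tissue.

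Rhythm was also counted among the partner genes. Of the tested partners 9 of 19 passed in liver (34% of all features), 6 of 26 in kidney (15.1%), 1 of 27 in forebrain (3.78%) and 0 of 27 in cerebellum (0.347%). The strongest in liver was Slc12a2, the sodium-potassium-chloride cotransporter, with a peak at CT23.8 and a peak-to-trough difference of 0.71 (edgeR adjusted p = 7.86e-07). Slc12a7, a potassium-chloride cotransporter, was the forebrain call, with a peak at CT8.99 (0.77, adjusted p = 0.0321).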

How the data were processed

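Forebrain, cerebellum, liver and kidney RNA of 48 groups, with 2 libraries each, was sequenced. The authors trimmed reads with Trim Galore, aligned them to GRCm38 with HISAT2, kept high mapping quality with Samtools and counted reads per gene on the annotated strand with featureCounts, and deposited raw counts for 49585 Ensembl features and 5248 numbered loci. Reads over more than 1 feature were left out by the counter's default. Depth was 24760295 to 58486579 counts per library. The study describes the libraries of a group as biological repeats.

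Counts were fitted with edgeR 4.0.16 (quasi-likelihood, trimmed mean scaling, filterByExpr) in R 4.3.3 over all features, with Benjamini-Hochberg adjustment over all features tested. Calls needed an adjusted p below 0.05 and, between tissues, an absolute log2 fold change above 1. Rhythm was a 24 h cosine. Alternatives were library totals alone, DESeq2 1.42.0, no filter, a replicate block, a covariate for long (over 100 kb) against short (under 10 kb) genes, JTK_CYCLE, each condition alone and leaving out each library. Leaving out a library leaves 1 in its group, which also changes the features that pass the filter. A call lost in such a fit therefore need not rest on the library alone. The fits were tested on simulated data. Members and lists were chosen with earlier results of these data known. Named genes were, per tissue contrast and direction, the 6 called members of at least 1 FPKM with the largest change, in other tests up to 10 called members by smallest p or the 3 nearest where none passed, the 5 highest per tissue, and 15 well known members. CPM and FPKM used total assigned counts and merged exon length. Some members and partners are counted but not reported by name here.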

Additional observations from a re-analysis of the deposited data

Results flagged for a closer look

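The response to sleep deprivation differed between liver and kidney for 7 of 67 tested members in edgeR's test of the difference (liver minus kidney, log2 scale), which brings them up here. Over all features 6.49% passed this test. These were Kcnc2 (-3.07), Kcnab2 (-0.62), Kcnj16 (0.36), Kcnh4 (-2.897), Kcnn1 (0.43), Kcnj10 (-0.54) and Kcnj13 (-0.40). Kcnc2 and Kcnh4 rest on 24 CON and 2 SD counts and on 9 CON and 1 SD counts in liver. The 2 positive differences did not pass with library totals alone (Kcnj16 adjusted p = 0.091, Kcnn1 0.141).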

How the results depend on the processing

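Counts of called members are given here. Fits without 1 library, given last, also changed the features tested. Without SD liver CT16 replicate 1, for example, 56 members were tested in liver, against 47 with all libraries. The count for brain against periphery with all libraries was 77. The DESeq2 fits called 3, 2 and 7 in the joint tests of forebrain, cerebellum and liver, 6, 4, 6 and 3 at single times in forebrain, cerebellum, liver and kidney, 4 and 3 for rhythm in forebrain and cerebellum, and 1 for the rhythm difference in forebrain. Over all features its joint tests called 936 of 23078, 244 of 22218 and 2017 of 19708. Without a filter on low counts the joint tests called 7, 16, 10 and 13, single times 7, 24, 17 and 18 (forebrain, cerebellum, liver, kidney), the kidney rhythm difference 1 and liver minus kidney 11. Over all features the joint test of forebrain without the filter called 729 of 39470, and DESeq2 called 1700 of 23078 at CT20 in forebrain. Library totals gave 1 for sleep deprivation in kidney, 6 and 1 in the joint tests of liver and kidney and 1 for forebrain rhythm. The long and short gene covariate gave 5 and 0 in the joint tests of liver and kidney, 0 and 0 at single times in forebrain and cerebellum and, added after seeing the data, 1 for cerebellum rhythm. JTK_CYCLE called 6 in kidney. CON libraries alone gave 1, 3 and 3 for rhythm in forebrain, liver and kidney, and SD libraries alone 1, 1 and 3 in cerebellum, liver and kidney. The cause of these shifts was not tested. Where no share over all features is given in this section, a member count is not read as a result about the members.

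Replicate numbers did not clearly pair the samples. Same-numbered CON and SD libraries correlated from -0.355 to 0.461, and 11 of 24 pairs were over 0.1. Same-numbered libraries of 2 tissues correlated from -0.0839 to 0.219 in CON and from -0.0869 to 0.414 in SD, with 4 and 5 of 36 pairs over 0.1. Of the 6 liver and kidney pairs in each condition, 3 were over 0.1. The main tests between tissues treated their libraries as independent. With the replicate block 0 members were called for sleep deprivation in kidney, 2 and 1 in the joint tests of liver and kidney, 10 for rhythm in liver, and 6, 0, 1 and 2 at single times in forebrain, cerebellum, liver and kidney.

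Leaving out 1 library gave 78 to 80, 53 to 57 and 61 to 64 between tissues (brain against periphery, forebrain against cerebellum, liver against kidney). Sleep deprivation gave 0 to 0, 0 to 0, 7 to 11 and 0 to 2 in forebrain, cerebellum, liver and kidney, the joint tests 0 to 0, 0 to 18, 2 to 5 and 0 to 2, and single times 0 to 1, 0 to 33, 0 to 5 and 0 to 1. Rhythm gave 0 to 5, 0 to 1, 8 to 16 and 10 to 13, the rhythm difference 0 to 0 in each, liver minus kidney 4 to 10 and forebrain minus cerebellum 0 to 0. The 18 and 33 came without CON cerebellum CT8 replicate 2, which leaves the library that stands apart alone in its group. The difference of Kcnk15 at CT8 in cerebellum changed sign with the long and short gene covariate (0.00112), and no other named sleep deprivation difference did so under the alternatives other than leaving out a library.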
